A study of Mus musculus with 4 samples.

Results

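The miR-465 family is a group of X-linked mouse microRNAs (miRNAs), and its 4 entries among the 567 mouse miRNAs of an Agilent array are described here in Sertoli cells with and without androgen action. The entries were found by name, as every array entry that begins with mmu-miR-465: mmu-miR-465a-5p, mmu-miR-465b-5p, mmu-miR-465c-5p and mmu-miR-465c-3p (written below without the species prefix). The family was selected on its total signals and detection flags on these same arrays, so its differences between groups are given as a description with no test. Sertoli cells, which nourish the developing germ cells of the seminiferous tubule, were purified from testes of B6129 male mice aged 5 to 7 weeks. All 3 groups carried a subcutaneous Silastic implant of 0.2 cm and were injected intraperitoneally. Sham mice received saline (1 array). Flut+Acy mice received flutamide, an antagonist of the androgen receptor, through the implant and acyline, an antagonist of gonadotropin-releasing hormone that lowers testosterone production, at 20 mg/kg (2 arrays). Flut+Acy+T mice received flutamide, acyline and replacement testosterone (1 array, the replacement array). Each array held RNA pooled from 5 to 7 mice, and whether both Flut+Acy arrays held separate pools is not given in the sources used here, nor is the length of treatment before the arrays.

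miRNAs are short RNAs that guide Argonaute proteins to messenger RNAs, mainly through the seed, the stretch from base 2 to base 8. One hairpin precursor can yield a mature miRNA from each of its arms, named 5p and 3p, and related precursors are told apart by a letter. The miR-465 precursors belong to a large X-chromosomal miRNA cluster known for its expression in the testis and in male germ cells, and for its rapid evolution in mammals. The letters of the family therefore mark paralogs, and the question here was which arm and which paralog carried signal in each group.

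The mature sequences are shown because the arms fall into separate seed groups, and because the paralogs differ at positions that lie within the array's probes. They are from RefSeq (GRCm38.p6, chromosome X, minus strand), 5′ to 3′, and all 4 entries matched by name. Capitals mark the seed.
miR-465a-5p: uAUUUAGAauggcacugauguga
miR-465b-5p: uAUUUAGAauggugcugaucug
miR-465c-5p: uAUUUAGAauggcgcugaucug
miR-465c-3p: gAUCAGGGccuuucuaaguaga

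The 3 entries from the 5p arm shared the seed AUUUAGA, which in the RefSeq table of 1679 mature mouse names occurs in 4 names, all of this family (the fourth is miR-465d-5p). The 3p entry had the seed AUCAGGG, which occurs in 3 names, again all of this family. Positions are counted from 1 at the 5′ end. From miR-465a-5p to miR-465b-5p the substitutions are C13U, A14G and G20C, and from miR-465a-5p to miR-465c-5p they are A14G and G20C. miR-465b-5p and miR-465c-5p differ by U13C alone. On the 3p arm, miR-465a-3p, miR-465b-3p and miR-465c-3p are identical over all 22 bases, and the array files list all 3 for the miR-465c-3p probes. The entry named miR-465c-3p therefore measured the shared 3p product of these paralogs and cannot separate them. Shifted by 1 base, miR-465d-3p differs from miR-465c-3p at 2 of 21 compared bases. Whether these probes also captured miR-465d-3p was not tested. The probes pair with the 3′ part of each miRNA, shown next in capitals for the longest probe of each entry.
miR-465a-5p: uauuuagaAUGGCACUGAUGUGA
miR-465b-5p: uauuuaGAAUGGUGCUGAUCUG
miR-465c-5p: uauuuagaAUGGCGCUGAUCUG
miR-465c-3p: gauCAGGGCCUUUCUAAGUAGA

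Each entry was printed as 20 spots. The 5p entries had 4 probes of 5 spots each, pairing with 12 to 15 bases of miR-465a-5p, 13 to 16 bases of miR-465b-5p and 11 to 14 bases of miR-465c-5p. The 3p entry had 2 probes of 10 spots each, pairing with 18 and 19 bases. Because the entries differ in probe number and pairing length, their signals are compared between arrays and cannot rank the arms or paralogs. Over the 22 bases compared, every base that separates the 5p entries lies within the longest probed stretch. There are 3 such positions between miR-465a-5p and miR-465b-5p and 1 between miR-465b-5p and miR-465c-5p. miR-465a-5p has 23 bases against 22 for the other 5p entries, and its last base is also within its probed stretch. Whether a 5p probe also captured another paralog was not tested.

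In the coordinates of the array files (mm9), the 4 probed sites lie on the minus strand of chromosome X within 13.1 kb. miR-465c-3p is at chrX:64079140-64079158 and miR-465c-5p at chrX:64079179-64079192, on the arms of 1 hairpin. miR-465b-5p is at chrX:64082424-64082439 and miR-465a-5p at chrX:64092274-64092288. A site given here need not be the only source of its miRNA, since RefSeq lists 2 precursors for miR-465c-5p. RefSeq lists 1 precursor for miR-465b-5p. It does not lie at the array site's distance from miR-465c-3p, 3284 bases, whereas the distances of the other entries match RefSeq. In RefSeq the 6 miR-465 precursors overlap no protein-coding gene, and the nearest protein-coding genes on either side are the predicted genes Gm52436 and Gm52439.

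The arrays differed in quality. All shared 1 slide, and of the 567 miRNAs the scanner software flagged 193 as detected for Sham, 275 and 270 for Flut+Acy, and 102 for the replacement array. The replacement array stood apart, with an SD of 1326 intensity units over its 672 negative-control spots against 2.72 to 7.45 on the others, and with 535 spots marked nonuniform against 0 to 4. Its lowest total signal flagged as detected was 238 units, against 0.77 to 2.67 on the others. Total signals are the software's sums over a miRNA's probes after background subtraction, on a linear intensity scale, and can fall below 0. Differences between groups are log2 differences of total signals quantile-normalized over the 4 arrays, with values under 5.46 units set to that floor.

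miR-465c-3p rose in Flut+Acy and was the only entry flagged as detected on all 4 arrays. Before normalization its total signal was 51.1 ± 4.92 units in Sham (± the scanner software's error), 1474 ± 124 and 1630 ± 134 in Flut+Acy, and 579 ± 134 with replacement. Sham was lowest, both Flut+Acy arrays were highest and close to each other, and Flut+Acy+T lay between them. After normalization the signals were 255 units in Sham, 1373 and 1313 in Flut+Acy, and 375 with replacement, in the same order of groups. The Flut+Acy mean exceeded Sham by 2.40 on the log2 scale, or 5.26-fold, with an SD of 0.05 within the Flut+Acy pair (n = 2). The pair's absolute log2 difference of 0.06 for miR-465c-3p stood beside a median of 0.09 and a 95th percentile of 0.35 over the 263 miRNAs detected on both arrays.

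The size of this difference depended on the scaling more than on the replicate. Without normalization between arrays, miR-465c-3p was 28.8-fold and 31.9-fold above Sham on the Flut+Acy arrays, against 5.38-fold and 5.15-fold after quantile normalization. The median of all 283 miRNAs detected in either group moved at the same time, from a log2 difference of -0.18 to 1.75. Relative to that median, miR-465c-3p was higher by 2.58 with normalization and by 3.17 without it.

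**Figure D1:**
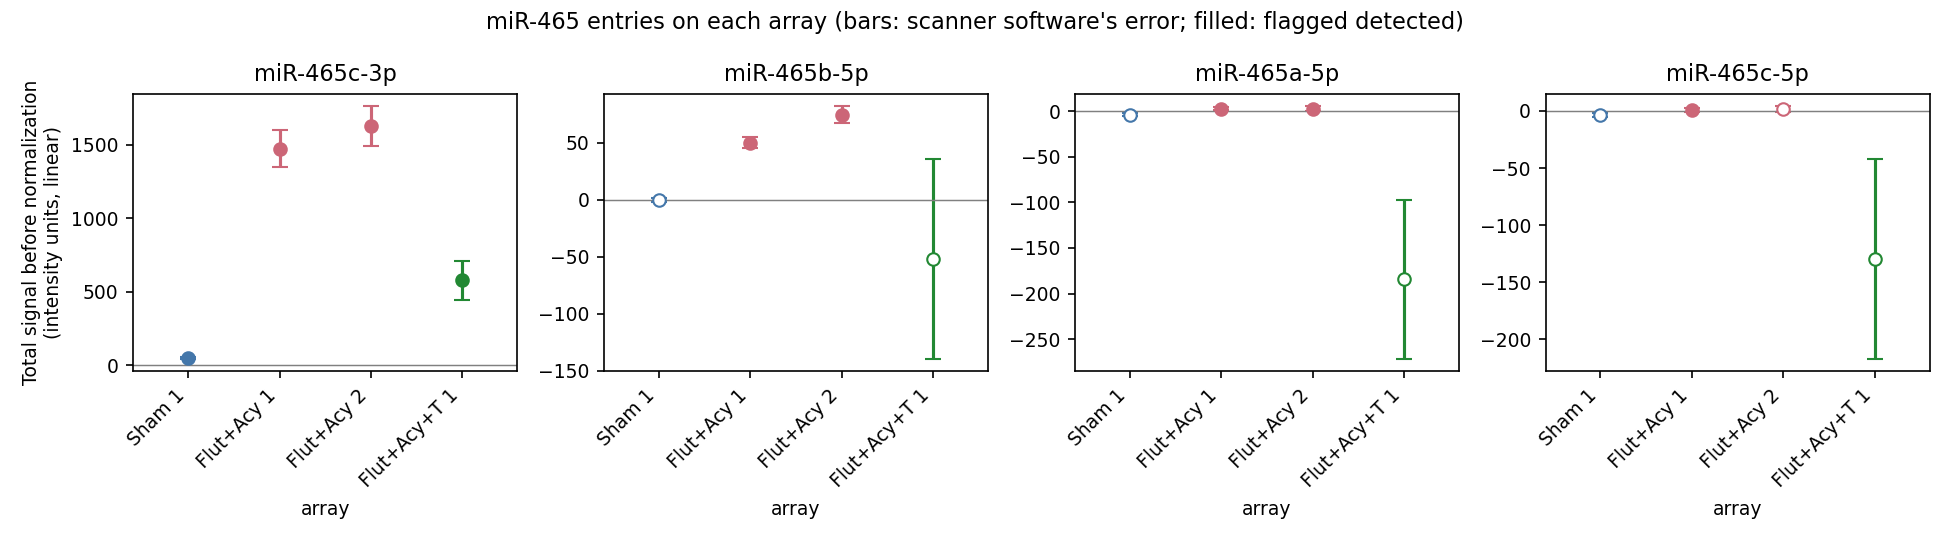
Total signal before normalization (intensity units, linear axis, 1 scale per panel) of the 4 miR-465 entries on each array, with the scanner software's error as bars and filled points where the software flagged the entry as detected. miR-465c-3p stands at 51.1 units in Sham and at 1474 and 1630 in Flut+Acy, and the bars of the 5p entries on Flut+Acy+T reach 87.2 to 87.3 units to either side of the point.

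The spots of both miR-465c-3p probes showed the same order of arrays. On the probe of 19 paired bases, the 10 spots ranged from 48.5 to 84.6 units for Sham, from 1232 to 2077 and from 1650 to 2037 for Flut+Acy, and from 688 to 872 with replacement. On the probe of 18 paired bases they ranged from 11.2 to 21.6 units for Sham, from 345 to 545 and from 445 to 508 for Flut+Acy, and from 58.4 to 150 with replacement. In neither probe did the spots of Sham, Flut+Acy and Flut+Acy+T overlap. Spots of 1 array share 1 RNA sample, so this spread is technical. All 10 spots of the longer probe were well above background on every array. For the shorter probe this held for 6 Sham spots, 10 of each Flut+Acy array and 0 of the replacement array. The shorter probe's total on the replacement array, 63.3 ± 87.4 units, was smaller than its error, against 10.1 ± 2.03 in Sham. Its place above Sham is therefore not resolved by that error. The longer probe's total on the replacement array was 516 ± 101 units. The shorter probe gave 19.8% of the total signal in Sham, 18.4% and 20.2% in Flut+Acy, and 10.9% with replacement. Taken alone and without normalization, the probes put Flut+Acy above Sham by 4.88 and 4.93 on the log2 scale.

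miR-465b-5p was detected on both Flut+Acy arrays alone. Its total signal was -0.20 ± 1.74 units in Sham, 49.6 ± 4.82 and 74.5 ± 7.41 in Flut+Acy, and -52.0 ± 87.2 with replacement. Sham lay at 0 within its error, both Flut+Acy arrays were about 10 errors above 0, and the error of the replacement array exceeded either Flut+Acy signal. After normalization the signals were -8.92 units in Sham, 77.0 and 90.4 in Flut+Acy, and -12.1 with replacement. Sham was not detected, so its level was set at the higher of its own signal and the lowest normalized signal flagged as detected on that array, 23.6 units. Against that level miR-465b-5p in Flut+Acy was at least 3.53-fold higher. The level is a convention, since some miRNAs without the flag lay above it on Sham, such as miR-471 at 5.78 on the log2 scale against 4.56 for the level. With the floored value the log2 difference was 3.93 (SD of the pair 0.16, n = 2), and this number rests on the floor.

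Nearly all of the miR-465b-5p signal came from its longest probe. The 5 spots of the probe of 16 paired bases ranged from 0.08 to 4.87 units for Sham, from 121 to 144 and from 200 to 206 for Flut+Acy, and from -97.8 to 158 with replacement. This probe gave 88.6% and 92.0% of the total on the Flut+Acy arrays, and all 5 of its spots were well above background on both. The Flut+Acy and Sham spots did not overlap, whereas the Flut+Acy+T spots spanned those of Sham and of the first Flut+Acy array. The next probe, of 15 paired bases, gave 5.27 and 6.29 units on Flut+Acy and -0.47 on Sham, and both shorter probes stayed between -0.37 and 0.34 units on these arrays.

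**Figure D2:**
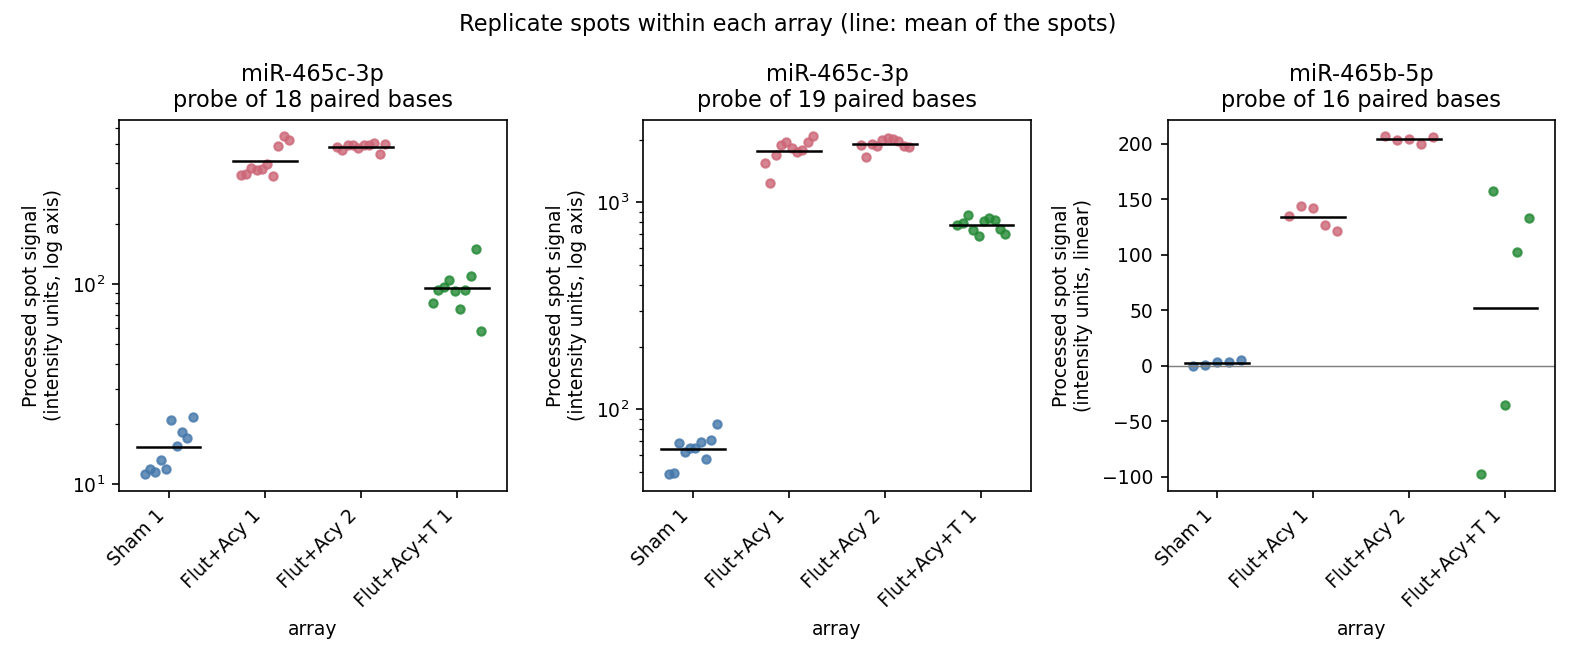
Processed signals of the replicate spots (intensity units) for both miR-465c-3p probes on a log axis and for the miR-465b-5p probe of 16 paired bases on a linear axis, with the mean of the spots as a line. The miR-465c-3p spots of the 3 groups do not overlap, and the miR-465b-5p spots on Flut+Acy+T run from -97.8 to 158 units.

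miR-465a-5p was at the limit of detection. Its total signal was -4.00 ± 1.74 units in Sham, 2.90 ± 1.92 and 2.85 ± 2.78 in Flut+Acy, and -184 ± 87.2 with replacement. The software flagged it as detected on both Flut+Acy arrays, although its totals there were 1.51 and 1.02 times their errors. Only its longest probe, of 15 paired bases, was above 0 beyond its error, at 4.68 ± 1.04 and 4.77 ± 1.45 units on Flut+Acy against -1.16 ± 0.87 on Sham. The spots of that probe ranged from -4.82 to -0.98 units on Sham and from 12.7 to 15.2 and 11.0 to 16.4 on Flut+Acy, without overlap. Well above background were 3 of them on the first Flut+Acy array and 0 on the second.

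miR-465c-5p was also at the limit of detection. Its total signal was -3.84 ± 1.74 units in Sham, 0.81 ± 1.89 and 1.46 ± 2.76 in Flut+Acy, and -129 ± 87.3 with replacement. It was flagged on the first Flut+Acy array alone, and 0 of its 20 spots were well above background on any array. Its longest probe, of 14 paired bases, gave spots from -5.54 to 0.62 units on Sham and from 5.81 to 13.6 and 8.16 to 14.8 on Flut+Acy. After normalization miR-465a-5p and miR-465c-5p lay under the floor on every array and gave log2 differences of 0. For miR-465a-5p, Flut+Acy minus Sham was 0.60 without normalization and 0.74 with the replacement array left out of the normalization, both with Sham at the floor. For miR-465c-5p these values were 0 and 0.02.

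In the comparison of Flut+Acy with Sham, 2 of the 4 entries (miR-465c-3p and miR-465b-5p) rose at least 2-fold, where 22.6% of the 283 miRNAs tested did. The family was chosen with this comparison known, so nothing is read from that count. It fell to 1 of 4, miR-465c-3p alone, with normexp background correction (6.36% of all tested) and with the floor at the highest of the arrays' lowest detected signals (8.48%). With only miRNAs detected on every array compared, miR-465c-3p was the 1 entry tested and it passed (13.8% of 189). miR-465c-3p ranked 22 of 283 from the highest difference, and from 2 to 33 over the alternatives that tested the same miRNAs. No rank is given for miR-465b-5p, whose Sham value is the floor and whose difference is 0 under the highest floor.

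With testosterone added, miR-465c-3p was lower than in Flut+Acy. Its distance from Sham depended on the scaling. After quantile normalization, the log2 difference of Flut+Acy+T from Flut+Acy was -1.84, and that from Sham was 0.56, or 1.47-fold. The Flut+Acy arrays serve in both comparisons, which are therefore not independent. The fall in Flut+Acy+T exceeded 2-fold under each way of processing that gave a value, from -3.05 with scaling to the 75th percentile of all miRNAs to -1.28 for the probe of 19 paired bases alone without normalization. The distance from Sham did not hold its side of 2-fold. It was 1.63 with scaling to the 75th percentile of miRNAs detected on all arrays, 3.50 without normalization, 3.65 for the longer probe alone, and -0.31 with the percentile of all miRNAs. Without normalization, Flut+Acy+T was therefore nearer to Flut+Acy (-1.42) than to Sham.

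miR-465b-5p was also lower in Flut+Acy+T by its floored value, at a log2 difference of -3.93, but no fold is given. The lowest normalized signal detected on the Flut+Acy+T array was 104 units, above both Flut+Acy signals of miR-465b-5p, so that array could not have shown the miRNA at its Flut+Acy level. Counted with floored values, 2 of the 4 entries had fallen by at least 2-fold from Flut+Acy to the replacement array, and 50.8% of the 297 miRNAs tested there had, so the family's share was near that of all miRNAs. Among the 76 miRNAs detected on all 4 arrays, 14.5% were at least 2-fold lower, and miR-465c-3p had the second lowest difference of them. Of the entries, miR-465c-3p alone was detected on Sham or Flut+Acy+T and was within 2-fold of Sham, as were 37.6% of the 218 miRNAs tested. That the Flut+Acy+T array had high background noise moves with these values, and its part in them was not tested.

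**Figure D3:**
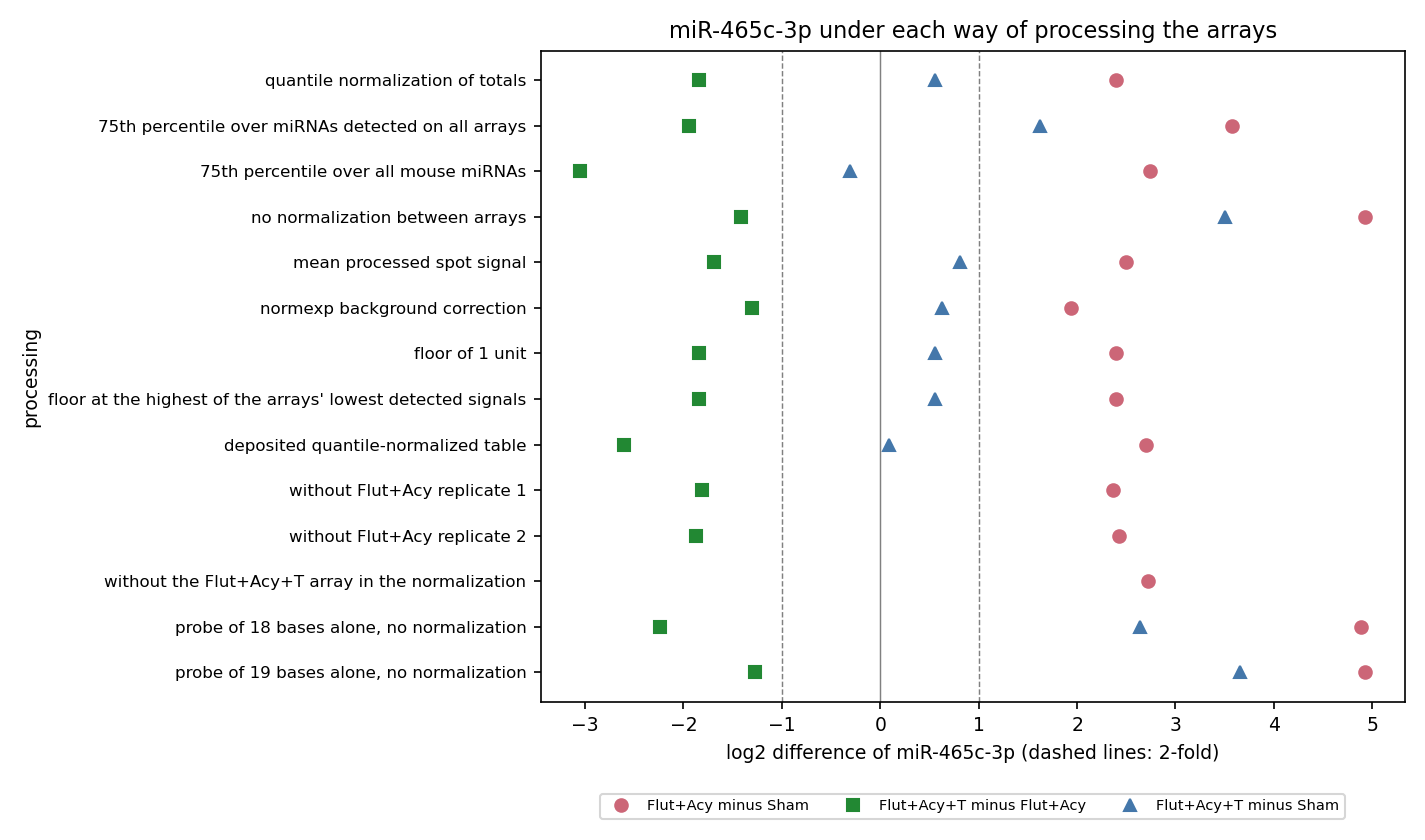
Log2 difference of miR-465c-3p between groups (horizontal axis) under each way of processing the arrays (vertical axis), with dashed lines at 2-fold. Flut+Acy stayed above Sham, from 1.93 to 4.93, and Flut+Acy+T below Flut+Acy, from -3.05 to -1.28, whereas Flut+Acy+T against Sham ranged from -0.31 to 3.65.

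The family sits at 1 end of its cluster, which on the array comprised 25 entries from chrX:64029935 to chrX:64092288, all on the minus strand. The 21 neighbours all lie on the same side of the miR-465 sites, the closest at 12.0 kb. Of these neighbours, 20 could be compared because Sham or Flut+Acy detected them. Flut+Acy exceeded Sham by at least 2-fold for 17 of the 20, beside 22.6% of all tested, and Sham exceeded Flut+Acy by as much for 0. Their median log2 difference was 2.27, against -0.18 over all 283 miRNAs tested. With normexp correction the count fell to 8 of 20, and with the highest floor to 9 of 20, where the shares of all tested were 6.36% and 8.48%. Just 9 of the neighbours were detected on Sham. The others were compared through Flut+Acy alone, and their differences rest on Sham values without the detection flag. Among those 9, 8 were at least 2-fold higher, beside 13.8% of the 189 miRNAs detected on every array compared. Outside the cluster, 6 of 24 tested miRNAs of chromosome X were at least 2-fold higher.

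The nearest neighbours, miR-470 and miR-470*, are the arms of 1 hairpin. miR-470 had total signals of 18.6 units in Sham, 588 and 596 in Flut+Acy, and 280 with replacement, and a log2 difference of 2.22 between Flut+Acy and Sham. miR-470* had 10.3 units in Sham, 286 and 298 in Flut+Acy, and 79.9 with replacement, and a log2 difference of 1.88. Both were highest on the Flut+Acy arrays, as miR-465c-3p was, and neither was flagged as detected on Flut+Acy+T. The lowest differences belonged to miR-881*, which was detected on no array, and miR-883b-5p, which was flagged on the first Flut+Acy array alone at 0.77 units. Like miR-465c-5p, both were at the floor throughout.

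Unnormalized folds lay close together along the cluster. Flut+Acy exceeded Sham by 30.3-fold for miR-465c-3p, and by 8.41-fold to 38.3-fold, with a median of 31.8-fold, for the 9 neighbours detected on each of these 3 arrays. Over all 189 miRNAs so detected the median was 2.92-fold and the 95th percentile 26.9-fold. Just 5 of the other miRNAs had a fold at least as large as that of miR-465c-3p, and these were its cluster neighbours miR-470, miR-741, miR-743a, miR-743b-3p and miR-871. The exception at the low end was miR-878-3p, with 18.9 units on Sham and 149 and 170 on Flut+Acy. The folds are ratios within each miRNA's own probes, and the higher overall signal of the Flut+Acy arrays enters all of them.

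**Figure D4:**
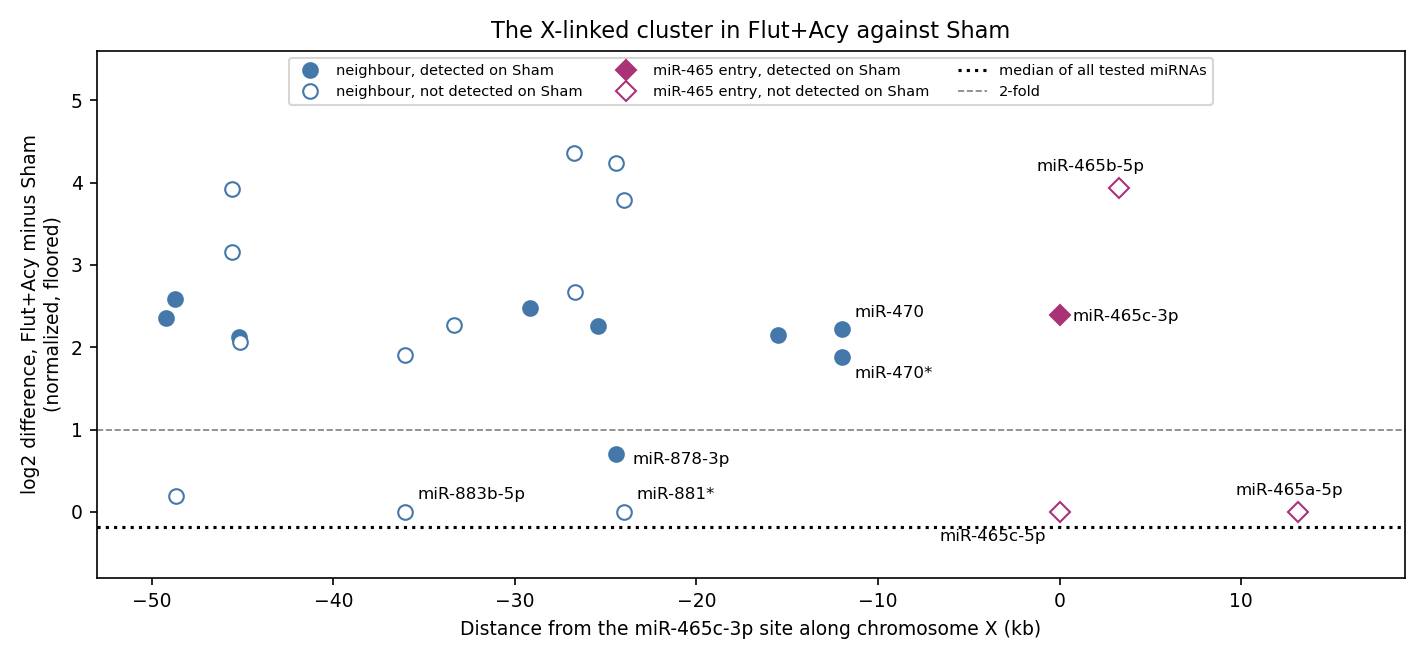
Log2 difference between Flut+Acy and Sham (normalized and floored) against distance from the miR-465c-3p site (kb) for the 25 cluster entries. Open symbols mark entries not detected on Sham. Their heights rest on Sham values without the detection flag, some at the floor and some above it. miR-465c-3p, at 2.40, lies among the neighbours detected on Sham, and miR-465a-5p and miR-465c-5p lie at 0 beside miR-883b-5p and miR-881*.

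The miRNAs whose pattern was most like that of the family were sought among the 260 others detected on both Flut+Acy arrays, by Euclidean distance of mean-centred log2 values over 4 arrays. The family's profile was the mean of its 3 entries flagged on both Flut+Acy arrays, 1 of which was at the floor throughout. The 5 nearest were miR-138 (distance 0.14), miR-470 (0.17), miR-34c (0.20), miR-883a-3p (0.24) and miR-741 (0.33), of which miR-470, miR-883a-3p and miR-741 are in the cluster. For miR-465c-3p alone, they were miR-471, miR-470, miR-741, miR-34c and miR-880, at distances of 0.18 to 0.38. For miR-465b-5p alone they were miR-742*, miR-878-5p, miR-184, miR-467e and miR-881, at 0.22 to 0.80, and the first 3 of these were at the floor on Sham and on Flut+Acy+T as miR-465b-5p was. The lists for single entries were added after the values had been seen. With 4 arrays that share 1 normalization, the distances are a description.

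**Figure D5:**
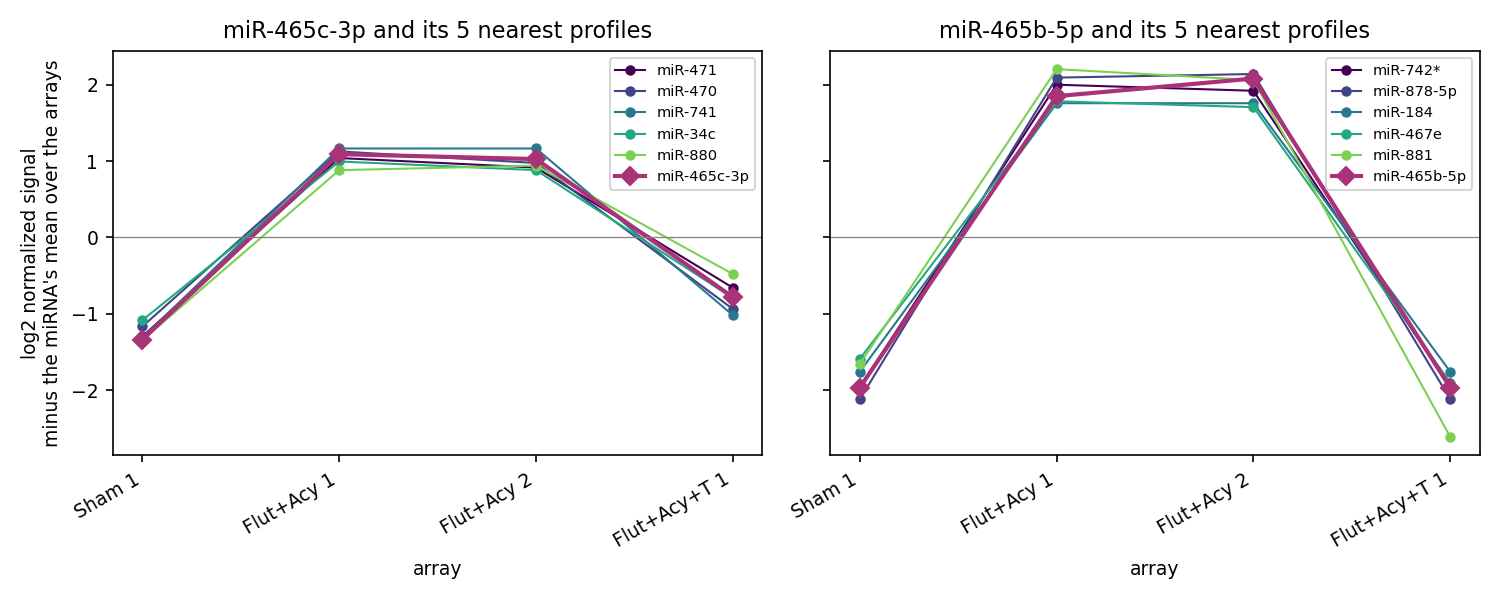
Normalized log2 signal minus the miRNA's own mean on each array, for miR-465c-3p and miR-465b-5p (diamonds) and the 5 miRNAs nearest to each, with lines joining the arrays as a guide to the eye. The curves of each panel are high on both Flut+Acy arrays and low on Sham and Flut+Acy+T, and the low ends for miR-465b-5p are the floor.

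Levels of miRNAs that mark cell types also differed between the arrays. miR-202-3p, a miRNA of gonadal somatic cells used here to mark Sertoli cells, had total signals before normalization of 103 units in Sham, 312 and 339 in Flut+Acy, and 8.25 with replacement, where it was not detected. After normalization its order against Sham turned, with a log2 difference of -0.37 between Flut+Acy and Sham. Its partner arm miR-202-5p was detected on Flut+Acy alone. The summed normalized signal of both arms was 404 units in Sham, 361 and 344 in Flut+Acy, and 5.93 with replacement. In this sum and those below, values under 0 were counted as 0. Of 7 miRNAs known from meiotic and post-meiotic germ cells (the miR-34b, miR-34c and miR-449 group), 5 were detected on Flut+Acy. Each of the 5 exceeded Sham by at least 2-fold (22.6% of all 283 miRNAs tested did), with a median log2 difference of 2.02 for the 5. Their summed normalized signal was 1678 units in Sham, 7151 and 6013 in Flut+Acy, and 2480 with replacement, where 3 of the 7 were detected. This was the same order of arrays as for miR-465c-3p, while miR-449b and miR-449c were detected on none. miR-34b-3p departed from that order, with total signals of 0.48 units in Sham, 40.3 and 51.8 in Flut+Acy, and 548 with replacement. It and miR-34c* were not detected on Sham, so their differences rest on Sham values without the detection flag. miR-34c, among the nearest profiles above, belongs to this list. A list of 5 muscle miRNAs held miR-1, miR-133a, miR-133b, miR-143 and miR-145. Its sum was 5142 units in Sham, 2717 and 2860 in Flut+Acy, and 3180 with replacement, where 3 of the 5 were detected. For 4 of the 5 Flut+Acy lay under Sham by at least 2-fold, as it did for 16.6% of the 283 miRNAs tested. The exception was miR-143, at a log2 difference of -0.68.

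The remaining lists differed less or were dimmer. Of 5 epithelial miRNAs (the miR-200 family), 3 were tested, and each rose past 2-fold in Flut+Acy, beside 22.6% of all 283 tested. Of these, miR-429 was not detected on Sham. The sums of the list were 171 units in Sham, 362 and 366 in Flut+Acy, and 210 with replacement, where 0 of the 5 were detected. Of 5 blood and macrophage miRNAs, 4 were tested, 0 were higher and 2 were lower by at least 2-fold (16.6% of all tested were lower). The sums were 998, 473, 471 and 359 units in the same order, with 0 of the 5 detected on the replacement array. The endothelial arms of miR-126 had sums of 1647, 2062, 1938 and 3279 units, with 1 of the 2 detected on the replacement array. Neither differed by 2-fold between Flut+Acy and Sham. In pooled cell preparations, a change in the share of cells of a type and a change in RNA per cell cannot be told apart, and the part of either in the miR-465 values was not tested.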

How the data were processed

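Total RNA of purified Sertoli cells was hybridized to 4 single-colour Agilent miRNA arrays on 1 slide. The authors deposited the scanner output of Agilent Feature Extraction 9.5.3.1, with linear, background-subtracted intensity values per spot, probe and miRNA that were not normalized between arrays, and other values that are flags of 0 or 1 for detection, outliers and background. They also deposited a table of intensities that they had quantile-normalized, used here as an alternative only. How its spots were combined, its scale and its centring are not given in the sources used here.

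Control features and 10 viral miRNAs were left out. The arrays were given 1 common distribution of total signals (567 mouse miRNAs, quantile normalization of linear values). Each array has a lowest normalized signal that carries the detection flag, and the median of these 4 values, 5.46 units, was the floor before log2 was taken. This evens out overall brightness, so differences are relative to other miRNAs. Flut+Acy was the mean of 2 arrays, whose spread may be technical. miRNAs detected on any array compared were counted at a 2-fold threshold. With 1 array for Sham and for Flut+Acy+T, no p-value was computed. The number of arrays limits the precision. The steps were tested on simulated data, for Flut+Acy against Sham alone. The simulated arrays all had the same noise and positive signals, so neither a noisy array nor entries near the floor were covered.

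The members and lists were chosen with earlier results of these data known. Named neighbours are the 2 nearest and the 2 with the lowest differences; others were named after their values were seen. Neighbours are miRNAs chained by gaps under 100 kb. The alternatives changed the scaling, background correction (normexp, offset 50, limma 3.58.1 in R 4.3.3), spot summary, probes, floor, filter, table or replicates. Where an alternative's floor would have been under 1 unit, 1 unit was used. Python 3.11.15, NumPy 2.4.6 and pandas 2.3.3 were used.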

Additional observations from a re-analysis of the deposited data

How the results depend on the processing

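The count of miR-465 entries that Flut+Acy raised over Sham by at least 2-fold (2) and the count that lay at least 2-fold under Flut+Acy on the replacement array (2) each became 1 with normexp background correction, with the floor at the highest of the arrays' lowest detected signals and with only miRNAs detected on every array compared (where 1 entry was tested), and stayed 2 under the other alternatives run. The entry lost was miR-465b-5p, which lies under that floor and was detected on neither Sham nor Flut+Acy+T. Cluster neighbours at least 2-fold higher numbered 17, against 8 with normexp, 9 with the highest floor and 8 of 9 under the strict filter. Entries within 2-fold of Sham in Flut+Acy+T numbered 1, against 0 with scaling to the 75th percentile of miRNAs detected on all arrays, 0 without normalization and 4 with no filter on detection. Without replicate 1 or replicate 2 of Flut+Acy, the counts were 2 to 2 for higher entries, 2 to 2 for lower entries and 17 to 17 for neighbours.

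No difference of a single entry that was past 2-fold in the reported values changed its sign. For miR-465c-3p, Flut+Acy minus Sham ranged from 1.93 to 4.93 and Flut+Acy+T minus Flut+Acy from -3.05 to -1.28 on the log2 scale. Flut+Acy+T minus Sham, 0.56 as reported, ranged from -0.31 to 3.65. Leaving the Flut+Acy+T array out of the normalization, an alternative chosen after seeing the data, gave 2.72 for the first. For miR-465b-5p, Flut+Acy minus Sham ranged from 0 to 6.38, since its Sham value is the floor. The cause of the other changes was not tested. A slide block was not run because all arrays shared 1 slide. No paired analysis was possible because only the Flut+Acy labels carry replicate numbers. Signal over background limits miR-465a-5p and miR-465c-5p on all arrays, and miR-465b-5p on Sham and Flut+Acy+T.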
